A study of Homo sapiens with 7 samples.

Results

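The apolipoproteins made by hepatocytes are described here at the level of their mRNAs. The set was chosen by symbol and held APOA1, APOA2, APOA4, APOA5, APOB, APOC1, APOC3, APOE, APOH and APOM, which are 10 of the 58174 genes listed in the deposited table. Total RNA-seq was performed on Huh-7 cells, an established line derived from a human hepatocellular carcinoma, harvested 72 h after transfection. The control group received a control siRNA (siC, 3 libraries) and the other group received siRNA pools directed against IGF2BP1 (siIGF2BP1, 4 libraries), with no other treatment or engineered allele named for either group. IGF2BP1 is an oncofetal RNA-binding protein, and the study asked which transcripts depend on it in this tumor cell line. Nothing in the labels says that the libraries of a group came from separate cultures, so the p-values measure only the spread between these libraries, which may be technical.

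Apolipoproteins are the protein part of lipoproteins, the particles that carry triglycerides and cholesterol through plasma. The liver secretes APOB in very low density lipoproteins and APOA1 and APOA2 in high density lipoproteins, while the smaller apolipoproteins move between particles and set how fast lipases and receptors act on them. Hepatocytes are the main source of most of these proteins, and APOA4 and part of plasma APOB come from the small intestine.

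The mRNA of APOH, a phospholipid-binding plasma glycoprotein, rose upon IGF2BP1 depletion to 3.17 times its mean in siC. The mRNA of APOC3, an inhibitor of triglyceride clearance, rose to 1.65 times its siC mean. These were the 2 members that passed an adjusted p of 0.01 among the 9 that were abundant enough to be tested, and no member passed as lower. At an unadjusted p under 0.05, 4 members were higher, where 11.0% of all genes were, and 1 was lower, where 14.8% were. APOA4 is one of these 4 and entered the test only through its higher group. With voom on recovered reads the calls were again APOC3 and APOH. Over all 14839 genes tested, 1.65% passed as higher and 2.28% as lower. A difference is called here when the adjusted p of limma, fitted over all genes tested, was at most 0.01. The log2 changes are on the scale of log2(FPKM + 0.1), siIGF2BP1 minus siC, and understate changes of low transcripts. FPKM stands for fragments per kilobase of the length listed for the gene, relative to the depth of the library. This listed length, 1332 bases for APOH and 14828 for APOB, is shorter than the span of the gene on the chromosome.

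The libraries held from 12826550 to 33212205 reads on genes. IGF2BP1 itself averaged 82.2 ± 2.03 FPKM in siC (SD, n = 3) and 15.8 ± 0.583 FPKM in siIGF2BP1 (SD, n = 4). All 8 hepatocyte markers examined were expressed in each library, among them ALB at 1705 to 2042 FPKM, and none was called. At an unadjusted p under 0.05, 2 were lower and 2 higher, where 14.8% and 11.0% of all genes were. Closest to a call was AHSG, a secreted liver glycoprotein, whose log2 change was 1.25 (adjusted p = 0.0115 in limma). Without siC replicate 3, a library described in the next paragraph, 4 of the 8 passed the threshold, AHSG (log2 change 0.97) and TF (0.51) as higher and TTR (-0.71) and FGB (-0.44) as lower, where 3.59% and 6.67% of all genes did. The markers PTPRC, CD68, VWF, COL1A1, ACTA2 and KRT7 of blood, vessel, stromal and bile duct cells lay below 0.1 FPKM in each library, while PECAM1 and KRT19 were expressed in each library. Of the 4 enterocyte markers VIL1 and CDX2 were expressed in each library at 26.7 to 52.6 and at 5.46 to 7.48 FPKM, SI was at 0.539 to 1.79 FPKM, and FABP2 was at or near 0. Thus 2 of these 4 markers, VIL1 and CDX2, were clearly expressed in Huh-7 cells, which does not show an intestinal state of the cells. None of the 3 enterocyte markers tested was called, while 2 were lower at an unadjusted p under 0.05, where 14.8% of all genes were. These 2 were SI with a log2 change of -1.12 (adjusted p = 0.0208 in limma) and VIL1 with one of -0.53 (adjusted p = 0.149 in limma). VIL1 passed as lower without siC replicate 3, with a log2 change of -0.81, and CDX2 went from 0.070 to -0.067. The part of these hepatocyte and enterocyte genes in the members' values was not tested. In bulk RNA, fewer cells with a transcript and less of the transcript per cell cannot be told apart.

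The library siC replicate 3 stood apart before any comparison. Between siC replicates 1 and 2 the chi-square of the reads per degree of freedom was 3.11, and between siC replicate 3 and these it was 53.6 and 56.8. Within siIGF2BP1 it was 6.58 to 9.81 for the pairs that include replicate 2 and 1.99 to 3.06 for the other pairs. Across 10653 protein-coding genes, its log2 distance from the mean of siC replicates 1 and 2 was lower the higher the GC content of the transcript (Spearman's rho -0.56, a description across genes, which are not replicates). Of the 10 apolipoproteins 9, all but APOB, were lower in siC replicate 3 than in both other siC libraries. The share of all genes that were so was not computed, and the median log2 distance of the 10653 protein-coding genes was -0.056. Of the 9 members tested, APOA1, APOA2, APOC1, APOE and APOM lay below the 5th percentile of these protein-coding genes in this distance, at a log2 distance of -0.93, -0.81, -1.09, -1.04 and -0.81 against a 5th percentile of -0.77. The transcripts of 8 members had a GC content above the median of 47.5%, up to 69.0% for APOE, and the remaining 2 were APOB (43.5%) and APOH (42.9%). Of these 2, APOB had a log2 distance of 0.27, whereas APOH, with the lowest GC content, had one of -0.55. The part of GC content in these distances was not tested for the members, and the log2 changes of the members are therefore also given without this library.

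**Figure D1:**
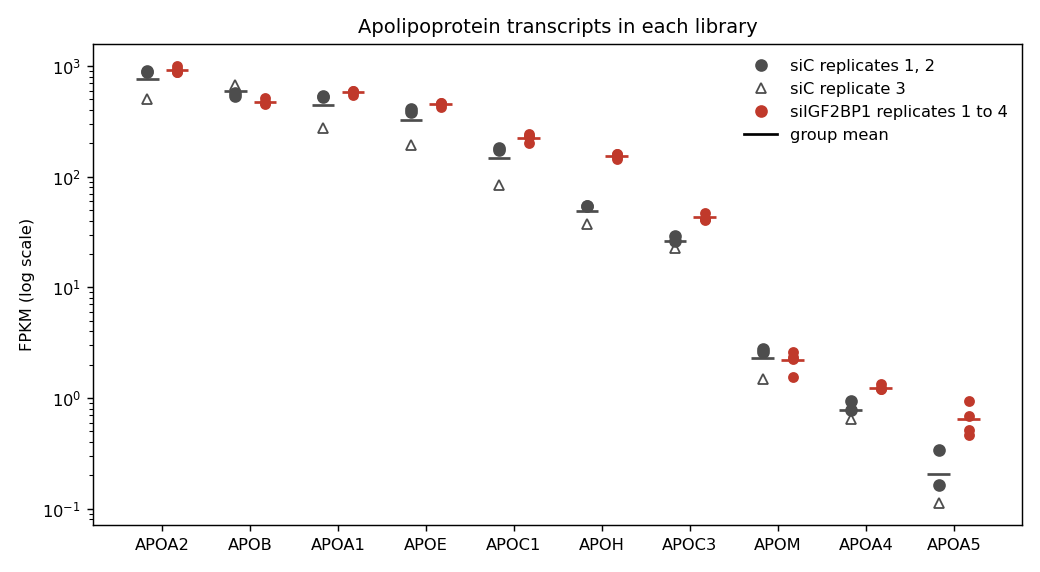
FPKM (log axis) of the 10 apolipoprotein mRNAs in each library, ordered by the siC mean. Filled grey circles are siC replicates 1 and 2, open triangles siC replicate 3, red circles the 4 siIGF2BP1 libraries, and lines the group means. APOA1, APOA4, APOA5, APOC1, APOC3, APOE and APOH lie higher in every siIGF2BP1 library than in any siC library. For APOA1, APOA2, APOC1 and APOE much of the spread in siC comes from the open triangle.

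The promoter windows of the members with the largest differences are shown first, beside one whose groups overlapped. RefSeq windows (GRCh38.p14, 250 bases before to 50 bases after an annotated start) were matched for 7 of the 10 members, all but APOA1, APOB and APOC3, with 2 windows for APOA5 and 3 for APOE. A set of 5 motifs was searched on both strands: GTTAAT, the left part of the HNF1 palindrome, CAAAGTCCA of HNF4, AAAGGTCA of nuclear receptor dimers, TGACGT of the CREB family and TATAAA, the TATA box. None of these strings overlaps another in the member windows. GTTAAT was found in 6.88% of 35116 windows of all genes, CAAAGTCCA in 0.384%, AAAGGTCA in 1.22%, TGACGT in 7.98% and TATAAA in 11.5%. The 250 bases before the start are printed 5′ to 3′ on the strand of the gene, all of these genes lying on the minus strand, and capitals mark a match to a motif or to its reverse complement.
APOH (chr17:66229416-66229665): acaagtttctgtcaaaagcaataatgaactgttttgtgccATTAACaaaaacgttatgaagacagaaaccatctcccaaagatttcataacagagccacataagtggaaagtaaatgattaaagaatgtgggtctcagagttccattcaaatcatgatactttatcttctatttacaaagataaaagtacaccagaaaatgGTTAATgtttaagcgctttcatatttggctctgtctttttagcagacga
APOA5 (chr11:116792421-116792670): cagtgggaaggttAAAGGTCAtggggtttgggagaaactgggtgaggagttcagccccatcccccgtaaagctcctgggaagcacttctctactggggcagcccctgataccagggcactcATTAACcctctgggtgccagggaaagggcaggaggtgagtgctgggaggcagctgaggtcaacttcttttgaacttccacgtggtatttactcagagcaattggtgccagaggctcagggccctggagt
APOA2 (chr1:161223629-161223878): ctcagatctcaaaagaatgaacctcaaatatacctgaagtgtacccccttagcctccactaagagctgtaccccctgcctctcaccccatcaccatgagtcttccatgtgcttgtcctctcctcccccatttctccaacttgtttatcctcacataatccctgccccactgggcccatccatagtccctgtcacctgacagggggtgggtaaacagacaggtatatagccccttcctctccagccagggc

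GTTAAT or its reverse complement stood in the APOH window from 210 to 205 and from 49 to 44 bases before the start, and in the printed APOA5 window from 129 to 124 bases before it. The latter also held AAAGGTCA from 237 to 230 bases before the start, and a TATAAA that begins 1 base before the start and reaches past the printed stretch. No motif of the 5 was found in the other APOA5 window, which is not printed, or in the windows of APOA2, APOA4, APOC1, APOE and APOM. A match is a description of letters, and its absence says only that these letters are not in the window.

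APOH (ENSG00000091583, chromosome 17, 66212033 to 66256525, minus strand) encodes β2-glycoprotein I, which binds anionic phospholipids and is the main antigen of antiphospholipid antibodies. The RefSeq start used for its window above lies inside this gene. Its mRNA was at 54.5, 54.3 and 37.0 FPKM in siC replicates 1 to 3 and at 161, 145, 151 and 160.0 FPKM in siIGF2BP1 replicates 1 to 4, from 679 to 3886 reads. Every siIGF2BP1 library lay far above every siC library, and the lowest siC value was again that of siC replicate 3. The libraries averaged 48.6 ± 10.0 (SD, n = 3) and 154 ± 7.73 FPKM (SD, n = 4), and the fitted log2 change was 1.69 with a 95% interval from 1.35 to 2.02 (adjusted p = 0.00111 in limma). Without siC replicate 3 the log2 change was 1.50, with siIGF2BP1 at 284% of the mean of the remaining siC libraries. APOH passed the threshold in each of the 7 fits that left out 1 library.

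The genes whose values followed those of APOH most closely over the 7 libraries, by Pearson's r of log2 values, were EFNA1 (r = 0.999), AMIGO2 (r = 0.999) and DDIT4 (r = 0.997). EFNA1, a membrane-bound ligand of Eph receptors, had a log2 change of 1.23, AMIGO2, a cell adhesion protein, one of 0.77, and DDIT4, a stress-induced inhibitor of mTOR signalling, one of 1.44. They are given as a description of likeness over few libraries, which share the difference between the groups.

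APOC3 (ENSG00000110245, chromosome 11, 116829706 to 116833072, plus strand) encodes a small apolipoprotein that inhibits lipoprotein lipase and slows the uptake of remnant particles by the liver. The values were 26.3, 28.9 and 22.7 FPKM in siC and 41.9, 40.5, 41.8 and 47.3 FPKM in siIGF2BP1, from 271 to 803 reads. The groups did not overlap, and siC replicate 3 lay closer to the other controls than for most other members. The averages were 26.0 ± 3.12 (SD, n = 3) and 42.9 ± 3.03 FPKM (SD, n = 4), and the fitted log2 change was 0.72 with a 95% interval from 0.49 to 0.96 (adjusted p = 0.00562 in limma). The call was less firm than that of APOH. Without siC replicate 3 the log2 change was 0.63 and the call held, whereas in the 6 fits that each left out another library the log2 change was 0.68 to 0.81 and the adjusted p of limma 0.0134 to 0.0260, above the threshold. Over its 19 alternatives the adjusted p of APOC3 ranged from 6.1e-05 to 0.142. APOC3 and APOH were the 2 members called without siC replicate 3, against the 3.59% of all genes given above.

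APOA5 (ENSG00000110243, chromosome 11, 116789367 to 116792420, minus strand) acts opposite to APOC3 on triglycerides, since it promotes their hydrolysis by lipoprotein lipase, and is made almost only in the liver. It was the one member too low for the test, with a mean below 1 FPKM over the 7 libraries. Its values were 0.165, 0.338 and 0.112 FPKM in siC, from 7, 21 and 3 reads, and 0.940, 0.688, 0.467 and 0.517 FPKM in siIGF2BP1, from 33, 25, 12 and 13 reads. The siIGF2BP1 libraries were all higher than the siC libraries, at 3.18 times the siC mean, on few reads. In the fit without a filter on low genes its log2 change was 1.33 ± 0.357 (SE), with a limma adjusted p of 0.114, so the difference did not pass. Its mean log2 difference without siC replicate 3 was 1.10, and every siIGF2BP1 library still lay above both siC libraries.

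APOE and APOC1 lie within 13559 bases of chromosome 19. APOE (ENSG00000130203, 44905791 to 44909393, plus strand) is the ligand by which remnant particles bind the LDL receptor and its relatives. Its abundance was 407, 384 and 192 FPKM in siC and 467, 428, 466 and 450.2 FPKM in siIGF2BP1. All siIGF2BP1 values exceeded all siC values, and siC replicate 3 lay far below the other 6 libraries. The difference of 0.54 ± 0.254 (SE) on the log2 scale did not pass (adjusted p = 0.233 in limma) and was 0.19 without siC replicate 3.

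APOC1 (ENSG00000130208, 44914247 to 44919349, plus strand) encodes a small apolipoprotein that inhibits cholesteryl ester transfer and remnant binding to receptors. The mRNA was found at 181, 174 and 83.7 FPKM in siC and at 227, 201, 232 and 241 FPKM in siIGF2BP1. The groups did not overlap with or without siC replicate 3. Its log2 change of 0.70 had a 95% interval from 0.07 to 1.33 (adjusted p = 0.151 in limma), and was 0.34 without siC replicate 3. Another annotated gene on the same strand (ENSG00000280087) shares 479 exonic bases with APOC1 and 19 with APOE, so the assignment of reads there is uncertain.

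The ratio of APOC1 to APOE FPKM was 0.445, 0.453 and 0.436 in siC and 0.487, 0.469, 0.498 and 0.535 in siIGF2BP1. The ratio in siC replicate 3 was close to those of the other controls although both transcripts were at their lowest level there. It was higher in each siIGF2BP1 library than in each siC library. An exact two-sided permutation test of 3 libraries against 4 cannot go below p = 0.0571. Of 5 ratios computed, 3 reached this value (APOC1 to APOE, APOB to APOA1 and APOH to APOC3, adjusted p = 0.0952 over the 5 in the exact permutation test).

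APOA1 (ENSG00000118137, chromosome 11, 116835751 to 116837622, minus strand) is the main protein of high density lipoproteins and the acceptor of cholesterol exported by ABCA1. The mRNA measured 531, 524 and 277 FPKM in siC and 584, 543, 589 and 594 FPKM in siIGF2BP1. The lowest siIGF2BP1 library lay just above the highest siC library, and siC replicate 3 was about midway between 0 and the others. The log2 change was 0.44 with a 95% interval from -0.10 to 0.98 (adjusted p = 0.283 in limma), and 0.13 without siC replicate 3 (adjusted p = 0.117 in limma).

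APOA2 (ENSG00000158874, chromosome 1, 161222292 to 161223631, minus strand) is the next most abundant protein of these particles and was the most abundant member in all libraries but siC replicate 3. This transcript was at 899.7, 874 and 507 FPKM in siC and at 878, 889.6, 948 and 1003 FPKM in siIGF2BP1. The groups overlapped, also without siC replicate 3. The log2 change was 0.34 with a 95% interval from -0.15 to 0.82 (adjusted p = 0.371 in limma), and 0.066 without siC replicate 3 (adjusted p = 0.522 in limma).

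APOM (ENSG00000204444, chromosome 6, 31652416 to 31658210, plus strand) encodes a lipocalin that carries sphingosine phosphate on high density lipoproteins. Its mRNA was low, at 2.62, 2.76 and 1.49 FPKM in siC and at 2.59, 1.54, 2.27 and 2.37 FPKM in siIGF2BP1, from 34 to 147 reads. The lowest values of both groups, in siC replicate 3 and siIGF2BP1 replicate 2, lay side by side, and the groups overlapped. Its log2 change, -0.036, had a 95% interval from -0.65 to 0.58 (adjusted p = 0.953 in limma). It was -0.31 without siC replicate 3 (adjusted p = 0.330 in limma), where the groups no longer overlapped. The log2 change took the opposite sign without siC replicate 1 (0.081), siC replicate 2 (0.12) or siIGF2BP1 replicate 2 (0.12). APOM shares 136 exonic bases with BAG6 on the other strand.

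APOA4 (ENSG00000110244, chromosome 11, 116820700 to 116823304, minus strand) is made mostly by the small intestine, where it is secreted with chylomicrons. Its values were 0.777, 0.933 and 0.641 FPKM in siC and 1.24, 1.19, 1.33 and 1.20 FPKM in siIGF2BP1, from 13 to 44 reads. The groups did not overlap, and APOA4 passed the filter on low genes only through siIGF2BP1. The difference of 0.61 ± 0.199 (SE) on the log2 scale did not pass (adjusted p = 0.101 in limma) and was 0.49 without siC replicate 3 (adjusted p = 0.110 in limma). It shares 635 exonic bases with a long noncoding RNA gene on the other strand.

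APOB (ENSG00000084674, chromosome 2, 21001429 to 21044073, minus strand) is the large structural protein of very low and low density lipoproteins. It was the one member with lower values in siIGF2BP1 in every library. Transcript levels were 541, 571 and 669 FPKM in siC and 467, 517, 469 and 451 FPKM in siIGF2BP1, from 86729 to 271288 reads. The groups did not overlap, and siC replicate 3 was the highest library, the reverse of what was seen for the other 9 members. The averages were 594 ± 67.0 (SD, n = 3) and 476 ± 28.5 FPKM (SD, n = 4), and the fitted log2 change was -0.32, which did not pass the threshold (adjusted p = 0.0986 in limma) and which turned to 0.033 under quantile normalization. Without siC replicate 3 the log2 change was -0.23 (adjusted p = 0.0488 in limma), which did not pass either. With array weights, which let limma give less weight to libraries that scatter more, APOB passed as lower (adjusted p = 0.0082, and between 5.6e-04 and 0.875 in the 19 alternatives tried), in a fit where 11.6% of all genes tested passed as lower.

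APOB mRNA is edited by APOBEC1 in the small intestine to encode a shorter protein. APOBEC1 was listed at 0 in each Huh-7 library. The other genes examined for this editing, A1CF, RBM47 and SYNCRIP, were expressed in each library and none was called. Unadjusted, 1 lower and 1 higher had a p under 0.05, where 14.8% and 11.0% of all genes did. The log2 changes were 0.20 for RBM47 (adjusted p = 0.0938 in limma) and -0.50 for SYNCRIP (adjusted p = 0.0872 in limma). Leaving out siC replicate 3 they were 0.16 and -0.31, and A1CF went from -0.033 to 0.078. SYNCRIP passed as lower with array weights (-0.36, adjusted p = 0.00576 in limma, and 0.000496 to 0.322 over its 19 alternatives).

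**Figure D2:**
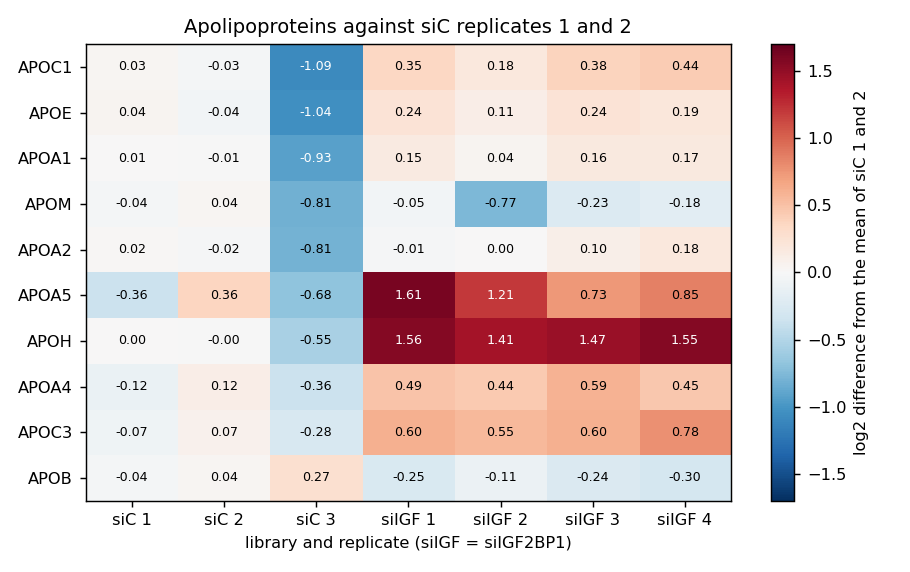
Log2(FPKM + 0.1) of each member in each library minus the mean of siC replicates 1 and 2, ordered by the value in siC replicate 3. In siC replicate 3 all members but APOB are below 0, and in the siIGF2BP1 libraries APOH is at 1.41 to 1.56 and APOC3 at 0.55 to 0.78.

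Side by side, 7 of the 9 members tested had a log2 change above 0, and the median of the 9 was 0.54 against -0.017 over all genes tested. The median of the members without siC replicate 3 was 0.19, against -0.031 over all genes tested in that fit. APOA1, APOA4, APOC1, APOC3, APOE and APOH lay higher in every siIGF2BP1 library than in any siC library, 6 of the 9 tested against 11.9% of all genes, and APOB alone lay lower, against 15.1% of all genes, with a log2 change that turned to 0.033 under quantile normalization. APOA4 was among these 6 and entered the test only through its higher group. Without siC replicate 3 the same 6 members stood higher, where 20.5% of all genes did, and APOB and APOM stood lower, where 29.3% did. Quantile normalization moved other members up as well, to log2 changes of 0.75 for APOA1, 0.78 for APOA2, 0.72 for APOE and 0.81 for APOC1. It also gave 0.78 for APOC3 and 1.77 for APOH, again the only members called. APOA4 (0.48) and APOM (-0.097) moved down under it.

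**Figure D3:**
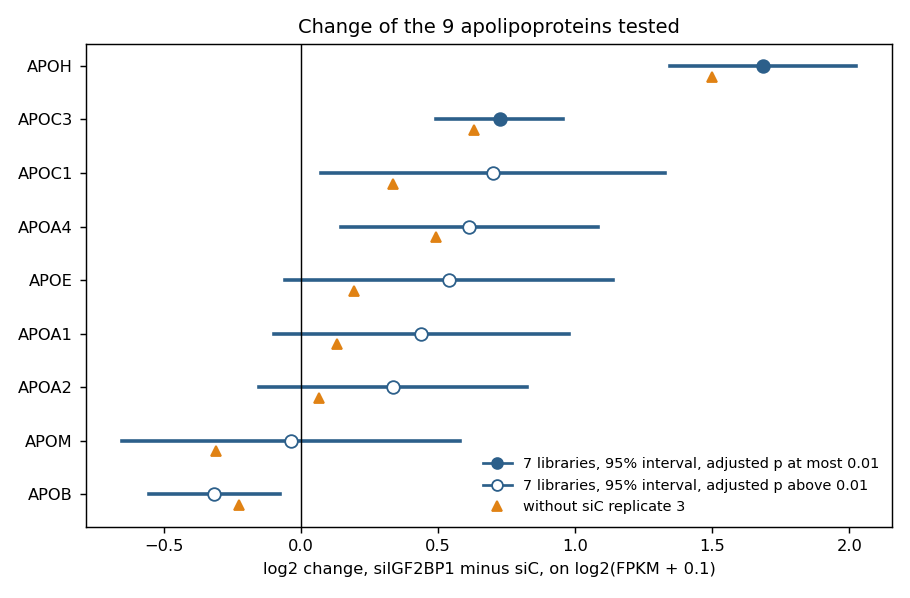
Log2 change of the 9 members tested (siIGF2BP1 minus siC, on log2(FPKM + 0.1)) with 95% intervals from limma, filled circles marking an adjusted p of at most 0.01, and triangles the value without siC replicate 3. The intervals of APOH (1.35 to 2.02) and APOC3 (0.49 to 0.96) lie apart from each other, and the triangles of all members but APOB lie to the left of the circles.

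The members spanned more than 3 orders of magnitude in FPKM, which is per length, and their order by FPKM was nearly the same in each library. From the siC means it was APOA2, APOB, APOA1, APOE, APOC1, APOH, APOC3, APOM, APOA4 and APOA5, with ranks from 22 for APOA2 to 12395 for APOA5 among protein-coding genes. Within siC the ranges of APOA2 and APOB overlapped, as did those of APOA1 and APOE, while each remaining pair of neighbours was separate. Within siIGF2BP1 APOA1 stood above APOB in each library, and among neighbours the ranges of APOB and APOE overlapped. Together the members took 1.01 to 1.12% of all reads, most of them from the long APOB transcript (0.676 to 0.977%).

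The order of APOA1 and APOB by FPKM, which depends on the scaling to length, differed between the groups, though neither gene was called. The ratio of APOB to APOA1 FPKM was 1.02, 1.09 and 2.41 in siC and 0.800, 0.952, 0.796 and 0.758 in siIGF2BP1. It was above 1 in each siC library and below 1 in each siIGF2BP1 library, and siC replicate 3 was far from all others. The ratio of APOH to APOC3, the 2 members called, was 2.07, 1.88 and 1.63 in siC and 3.85, 3.57, 3.62 and 3.38 in siIGF2BP1. The lowest ratio in siIGF2BP1 was well above the highest in siC. Both members were called in these same libraries with unlike changes, so this separation is no separate support. The groups overlapped for the other two ratios computed. APOA2 to APOA1 was 1.67 to 1.83 in siC and 1.50 to 1.69 in siIGF2BP1 (exact permutation p = 0.114). APOC3 to APOA1 was 0.0495, 0.0553 and 0.0819 in siC replicates 1 to 3 and 0.0710 to 0.0796 in siIGF2BP1 (exact permutation p = 0.286), so only siC replicate 3 lay above the siIGF2BP1 libraries.

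**Figure D4:**
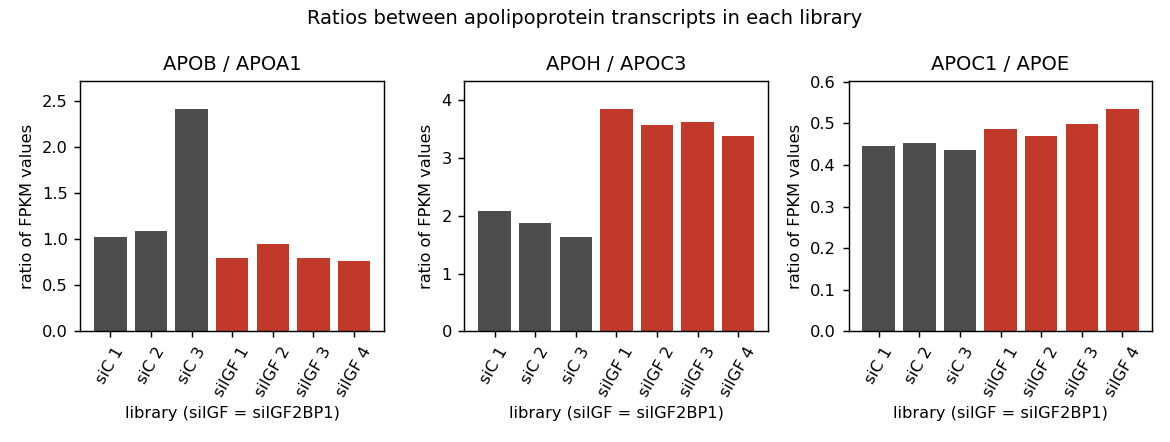
The 3 of 5 computed FPKM ratios between members whose groups did not overlap, in each library, siC in grey and siIGF2BP1 in red, each axis starting at 0. The ratio of APOB to APOA1 is 1.02 to 2.41 in siC and 0.758 to 0.952 in siIGF2BP1, that of APOH to APOC3 is 1.63 to 2.07 and 3.38 to 3.85, and that of APOC1 to APOE is 0.436 to 0.453 and 0.469 to 0.535.

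A run of 4 members, APOA5, APOA4, APOC3 and APOA1 in this order, lie within 48256 bases of chromosome 11. All 4 were higher in each siIGF2BP1 library than in each siC library, as were 11.9% of all genes tested, or 20.5% without siC replicate 3. APOC3 was called, APOA5 was too low to be tested, APOA4 entered the test only through siIGF2BP1, and the log2 change of APOA1 was 0.44 with and 0.13 without siC replicate 3. APOC3 lies on the plus strand and the other 3 on the minus strand, and APOA1 shares 123 exonic bases with the antisense gene APOA1-AS. The 10 genes chosen around this cluster and around APOE and APOC1 held 9 tested and none called, with a median log2 change of 0.074 (-0.074 without siC replicate 3) and 0 genes at an unadjusted p under 0.05. The one with the largest change, BCAM, a laminin-binding adhesion protein gene near APOE, stood at 0.29 on the log2 scale (adjusted p = 0.545 in limma), which was below 0 without siC replicate 3 (-0.063) and with array weights (-0.0011). PAFAH1B2, an acetylhydrolase subunit near the chromosome 11 cluster, stood at -0.22 (adjusted p = 0.252 in limma) and at -0.086 without siC replicate 3.

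The surrounding pathway was read from 7 lists that hold 118 genes in all, of which 96 were tested. The lists cover particle assembly and secretion, receptors and uptake, plasma remodelling, transcription factors, other apolipoproteins, the editing of APOB mRNA and the neighbours of the clusters on chromosomes 11 and 19. Of the 96 genes, 2 passed as lower and 4 as higher, against 2.28% and 1.65% of all genes, with a median log2 change of 0.073. In the fit without siC replicate 3, 5 passed as lower and 10 as higher, against 6.67% and 3.59%, with a median of -0.0073. Among 21 genes of particle assembly and secretion tested, ABCA1, the exporter that loads cholesterol onto APOA1, rose from 22.0 ± 0.603 (SD, n = 3) to 38.1 ± 0.967 FPKM (SD, n = 4), with 0.79 as its fitted log2 change (adjusted p = 0.000536 in limma). PLIN2, a coat protein of lipid droplets, rose by 0.68 on the log2 scale (adjusted p = 0.000949 in limma). KLHL12, an adaptor of the ubiquitin ligase that enlarges COPII transport vesicles, fell by 0.39 on the log2 scale (adjusted p = 0.00856 in limma). Its call was lost under median centring (0.0159), quantile normalization (0.0175), no trend (0.0154), no filter (0.0154) and the replicate block, and its 19 alternatives gave an adjusted p in limma between 3.8e-05 and 0.180. The log2 changes without siC replicate 3 were 0.81 for ABCA1, 0.67 for PLIN2 and -0.39 for KLHL12.

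Among 15 receptors and uptake genes tested, LSR, the lipolysis-stimulated receptor of APOB and APOE particles, changed by -0.73 on the log2 scale (adjusted p = 0.00522 in limma), and LIPA, the lysosomal lipase that frees cholesterol from particles taken up, changed by 0.59 (adjusted p = 0.00309 in limma). Among the 13 genes of plasma remodelling that were tested and are reported here, none was called. Of these 13, 1 was lower and 6 were higher at an unadjusted p under 0.05, where 14.8% and 11.0% of all genes were. The median log2 change of these 13 genes was 0.18, and 0.10 without siC replicate 3. In the fit without that library PCOLCE2 (log2 change 0.65, adjusted p = 0.00163 in limma) and PLA2G7 (0.39, adjusted p = 0.00601 in limma) passed as higher, where 3.59% of all genes did. Of 31 transcription factors tested, CREB3L3, a liver factor that activates APOA4, APOA5 and APOC2 genes, was called as higher by 0.85 (adjusted p = 0.00646 in limma). ABCA1 and PLIN2 passed in each of the 7 fits that left out 1 library, LIPA and CREB3L3 in 2 of them, and LSR and KLHL12 only without siC replicate 3. In that fit the log2 change was -0.63 for LSR, 0.54 for LIPA and 0.80 for CREB3L3.

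The 14 other apolipoproteins held 5 tested, all with log2 changes above 0 and none called. Of these 5, 3 were higher at an unadjusted p under 0.05, where 11.0% of all genes were. APOL6 and APOL2, intracellular members of the APOL family, had log2 changes of 0.62 (adjusted p = 0.0240 in limma) and 0.50 (adjusted p = 0.0713 in limma). When siC replicate 3 was left out, APOL6 was at 0.61 and did not pass, and APOL2 was at 0.32 and passed as higher (adjusted p = 0.00990 in limma, and 0.00225 to 0.277 over its 19 alternatives, array weights at 0.00832 among them). APOC2, the activator of lipoprotein lipase, went from 0.12 to -0.028. APOC4 and APOF were listed at 0 in each library.

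**Figure D5:**
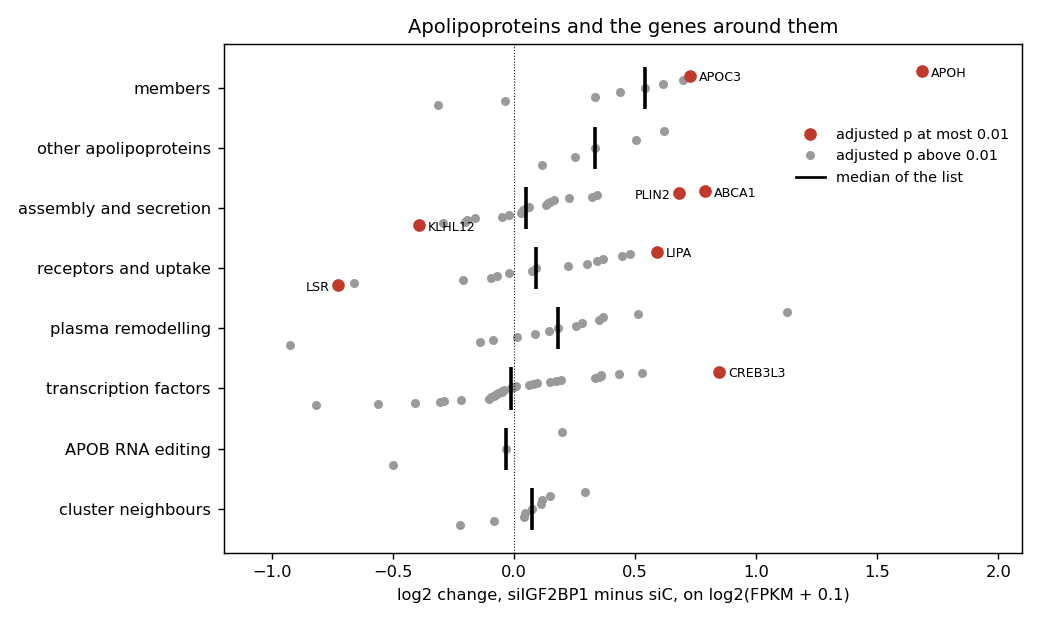
Log2 changes of the genes tested in 8 lists, the members and the 7 pathway lists (siIGF2BP1 minus siC, on log2(FPKM + 0.1)), red circles marking an adjusted p of at most 0.01 and black lines the median of each list. The members have a median of 0.54 and those of the 7 pathway lists lie between -0.033 for APOB RNA editing and 0.34 for the other apolipoproteins.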

How the data were processed

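Total RNA of Huh-7 cells had been depleted of ribosomal RNA and turned into directional libraries. Per the labels and the study's methods, the authors trimmed reads with cutadapt (1.14), aligned them to GRCh38 with HISAT2 (2.1.0), handled alignments with SAMtools (1.5), counted them per Ensembl gene with featureCounts (1.5.3) and normalized with edgeR (3.18.1, TMM). The strand setting of the counting is not given in the sources used here. The deposited FPKM values, scaled by the authors to the listed gene length and effective library size, were used. The authors' own columns of fold changes, p-values and FDR were not used, and 0 columns lay outside the labels. FPKM times length gave whole multiples of 1 read for 100.0% of values in each library (within 0.05 read), from which reads were recovered.

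A gene was tested if its values averaged 1 FPKM or more over the 7 libraries. Group means of log2(FPKM + 0.1) were compared by the moderated test of limma (3.58.1, R 4.3.3), fitted with a trend of variance on abundance. The p-values are two-sided, were adjusted by Benjamini-Hochberg over all these genes and were read at 0.01. The code was tested on simulated data. Alternatives were a pseudocount of 1, no filter, a mean of 5 FPKM, median centring, quantile normalization, no trend, array weights, voom on recovered reads, protein-coding genes only, a threshold of 0.05, a replicate block, and leaving out each library. Array weights were estimated gene by gene, because limma's default estimation stopped before it converged. This change was made after its calls had been seen, and the default was added as an alternative after seeing the data. Named genes were all members, the genes called in each list (at most 6) or, in lists without a call other than plasma remodelling, the largest changes, and the genes most like APOH, the member with the largest change. The plasma remodelling genes named were those that passed without siC replicate 3. The members, lists and tests were chosen with earlier results of these data known, 1 gene of the plasma remodelling list is not reported here and is left out of the list counts, and the motifs after the member windows had been seen. Coordinates and overlaps are from GENCODE v44 (GRCh38), windows from RefSeq. Ratios, ranges and figures were computed in Python (3.11.15) with pandas (2.3.3), scipy (1.17.1) and matplotlib (3.10.9).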

Additional observations from a re-analysis of the deposited data

Results flagged for a closer look

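Of 25 genes examined, 1 had a siIGF2BP1 library far from the other 3 of its group, where chance gives such a gap in about 1 of 20 groups. SYNCRIP, from the list for the editing of APOB mRNA, was at 25.3, 29.8, 25.7 and 25.2 FPKM in siIGF2BP1 replicates 1 to 4. The distance of replicate 2 from its nearest neighbour thus took up 0.888 of the whole range, above the critical value of Dixon.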

How the results depend on the processing

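APOH kept its call and a log2 change between 1.50 and 1.78 in each alternative except the replicate block, where its limma adjusted p was 0.0909. In that fit of replicate number as a block, 0 genes were lower, 0 higher, 0 members and 0 pathway genes called. Replicate 4 has no partner, so the fit has few degrees of freedom, and the deviations of same-numbered libraries correlated at -0.026, -0.12 and -0.11, which gives no sign that the numbers pair the libraries. Without a filter on low genes 206 genes were lower and 146 higher, with 1 member (APOH) and 3 pathway genes called. At a threshold of 0.05 the counts were 1010 and 703, with 22 pathway genes. With protein-coding genes only, 511 were lower and 12 pathway genes were called. Array weights gave 1722 and 1022 genes, 1 lower member (APOB) and 26 pathway genes. Their default estimation, which did not converge, gave 3245 and 2169 genes, 1 lower member, 4 higher members (APOC1, APOC3, APOE and APOH) and 42 pathway genes. With voom on recovered reads 489 genes were lower and 353 higher. Leaving out 1 library gave 53 (without siC replicate 2) to 990 lower genes (without siC replicate 3), 66 (without siIGF2BP1 replicate 1) to 533 higher genes, 1 to 2 higher members and 2 to 15 pathway genes, the upper values all without siC replicate 3. Of 169 values of member log2 changes under the alternatives, 4 changed sign. APOB was at 0.033 under quantile normalization, and APOM ranged from -0.31 to 0.12 when 1 library was left out. BCAM was at -0.0011 with array weights and from -0.063 to 0.52 when 1 library was left out. The causes were not tested. APOA5, with 3 to 33 reads, and APOA4, with 13 to 44, are the members that depth limits most.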
